A study of Homo sapiens with 4 samples.

Results

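The ERBB receptors and their EGF-family ligands were followed as 10 genes: the receptors EGFR, ERBB2, ERBB3 and ERBB4, and the ligands EGF, AREG, EREG, HBEGF, TGFA and BTC. They were taken by gene symbol, through their Ensembl identifiers, from the 60558 identifiers in each file, and all 10 were present. Strand-specific RNA sequencing gave 1 library for each of 4 conditions of 2 lung adenocarcinoma (LAD) cell lines, A549 and HCC827. A549-myr-AKT1 and HCC827-myr-AKT1 cells carried a constitutively active form of the kinase AKT1, in which an added myristoylation signal holds AKT1 at the membrane, and A549-vector and HCC827-vector cells were their controls. No other agent is named for any of the 4, and the labels and methods do not say whether a line was 1 clone. HCC827 is known to carry an in-frame deletion in the EGFR kinase domain together with amplification of the EGFR gene. Both lines were grown in medium with serum, so growth factors were present in every condition.

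EGFR, ERBB2, ERBB3 and ERBB4 are single-pass receptor tyrosine kinases that signal as pairs. EGF, TGFA and AREG bind EGFR, whereas HBEGF, EREG and BTC bind both EGFR and ERBB4. ERBB2 has no known ligand of its own, and ERBB3, whose kinase activity is weak, binds neuregulins and recruits PI3K, which activates AKT. The ligands are made as membrane-bound precursors that metalloproteases such as ADAM17 release from the cell surface.

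The libraries held 16322183 to 33530317 reads. AKT1, the check of the labels, had normalised read counts of 4243.2 in A549-vector and 6297.1 in A549-myr-AKT1 cells (log2 ratio 0.57, 95% counting interval 0.51 to 0.63), and 2175.2 in HCC827-vector and 4805.5 in HCC827-myr-AKT1 cells (1.14, 1.07 to 1.21). The A549 ratio of AKT1 was short of the threshold of 1 used below for a call. In the fits over both lines described below, AKT1 did not pass in limma (adjusted p = 0.134) or edgeR (adjusted p = 0.162). It passed in DESeq2 (adjusted p = 0.0409). Reads of the introduced AKT1 and of the cells' own gene cannot be told apart. All 6 epithelial markers examined were above 3 reads in every library. The lowest, CLDN7, had only 4 reads in A549-vector against 3529 in HCC827-vector cells. Of the 3 lung genes, SFTPB and NKX2-1 had 0 reads in A549-vector cells and NAPSA had 48. In HCC827-vector cells NKX2-1 had 1993 reads, NAPSA 4520 and SFTPB 42. Of the markers of other cell types, CD3E and COL1A2 had 0 reads in all 4 libraries. The summed level of 5 leukocyte markers was 2.88 TPM (transcript level per unit of length, relative to all transcripts of the library) in A549-vector and 69.9 in A549-myr-AKT1 cells, and 1.97 and 11.3 in the HCC827 pair, with most of it from CD14 in the myr-AKT1 libraries. For 4 fibroblast markers these sums were 1.17 and 11.6 in A549 and 1.03 and 3.85 in HCC827, and for 4 endothelial markers 0.232 and 2.71, and 1.94 and 5.29. Their part in the results was not tested. In bulk RNA, fewer cells that express a gene and less RNA per cell cannot be told apart.

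A normalised read count is the deposited value, in which the reads of a gene are scaled by the size factor of the library. The log2 ratio is that of the myr-AKT1 to the vector library, and its interval (Clopper-Pearson) covers counting error only, because each condition had 1 library and reads are not independent molecules. Ratios within a line therefore carry no p-value and no replicate check. A ratio above 1 or below -1 on the log2 scale was called higher or lower where the gene had a mean normalised count of at least 10 in the pair and at least 1 read in both libraries.

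In A549, 3 of the 10 genes were called higher in myr-AKT1 cells (EGF, ERBB3 and TGFA) against 14.8% of the 18688 genes measured, and 2 were called lower (AREG and EREG) against 9.86% of them. In HCC827, 1 of the 9 genes that passed the filter was called higher (EGF) against 14% of 17306 genes, and 3 were called lower (EGFR, EREG and BTC) against 12.4%. ERBB4 was the gene left out there. EGF was thus called higher and EREG lower in both lines. The share of all genes called the same way in both lines is not given here. The median log2 ratio was 0.18 over the 10 genes in A549 and -0.52 over the 9 genes in HCC827, beside -0.04 over all genes in either line. Across the 10 genes together, then, the myr-AKT1 libraries held neither uniformly more nor uniformly less mRNA of the family.

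**Figure D1:**
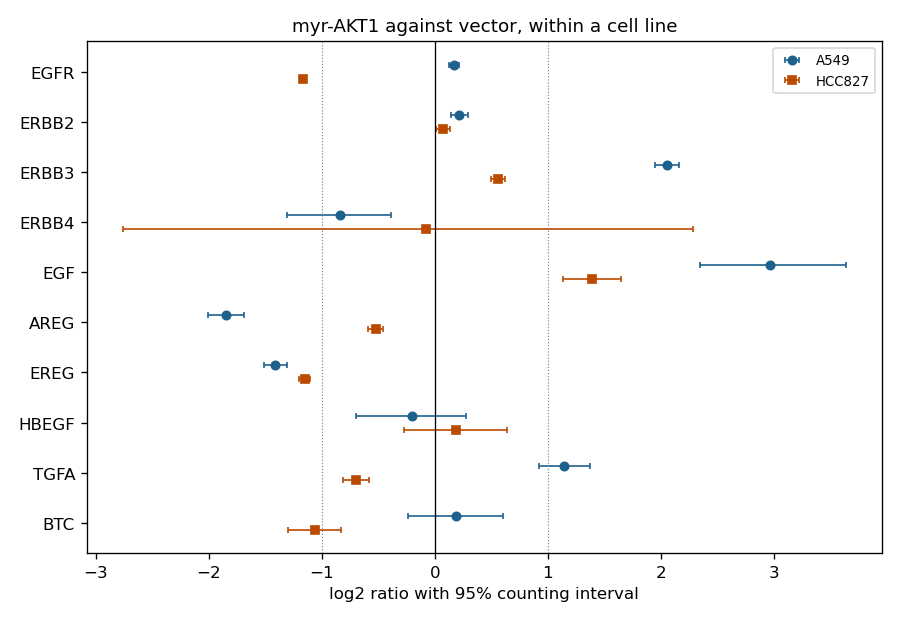
Log2 ratio of myr-AKT1 to vector normalised read counts for each gene in A549 (circles) and HCC827 (squares), with bars for the 95% counting interval and dotted lines at -1 and 1. EGF lies above 1 and EREG below -1 in both lines, whereas EGFR is at 0.17 in A549 and -1.17 in HCC827, and TGFA at 1.15 and -0.70.

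EGFR, the main receptor of the family in epithelia, gave 7499.6 normalised counts in A549-vector and 8454.5 in A549-myr-AKT1 cells. In HCC827, EGFR gave 153714 in vector and 68423 in myr-AKT1 cells. EGFR (chr7:55019017-55211628, plus strand, GRCh38) was therefore 1.13-fold higher with myr-AKT1 in A549 (log2 ratio 0.17, 0.13 to 0.22) and 2.25-fold lower in HCC827 (-1.17, -1.18 to -1.15). EGFR-AS1, the antisense gene within EGFR, had 0 reads in all 4 libraries. EGFR in HCC827-myr-AKT1 cells was still above both A549 libraries. The difference between the lines in this ratio could not be tested with 1 library per condition.

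ERBB2, the partner receptor without a ligand, had ratios slightly above 0 in both lines, short of the call. Its normalised counts were 2476.6 and 2882.3 in A549-vector and A549-myr-AKT1 cells, and 3944.2 and 4144.9 in the HCC827 pair. The log2 ratios were 0.22 (0.14 to 0.30) in A549 and 0.07 (0.01 to 0.14) in HCC827. PGAP3, with 336 to 479 reads per library, and MIEN1, with 887 to 1452, overlap the ends of ERBB2 on the opposite strand. The sources used here do not say whether counting used the strand. Reads in these overlaps could therefore have been counted for either gene or left out.

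ERBB3, the neuregulin receptor that recruits PI3K, was higher in the myr-AKT1 library of both lines. In A549 it had 800.8 normalised counts in vector and 3324.3 in myr-AKT1 cells, a 4.15-fold higher level (log2 ratio 2.05, 1.95 to 2.16). In HCC827 it had 3508.7 and 5179.2, which was 1.48-fold higher (0.56, 0.50 to 0.62) and short of the call. On counts rescaled over all 4 libraries, ERBB3 was at 2977.6 in A549-myr-AKT1 and 3902.0 in HCC827-vector cells. The unnamed gene ENSG00000257411 overlaps the end of ERBB3 on the same strand and had 0 reads in all 4 libraries. How reads in that overlap were counted is not stated.

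ERBB4, which binds neuregulins and several EGFR ligands, was the least abundant receptor in every library. A549-vector cells had 136 reads of ERBB4 (118.8 normalised counts) and A549-myr-AKT1 cells 58 reads (66.4), with a log2 ratio of -0.84 (-1.31 to -0.38). HCC827-vector cells had 5 reads and HCC827-myr-AKT1 cells 3, which is too few to show a difference at this depth.

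EGF, the founding ligand, showed the highest ratio of the 10 genes in each line, from a low starting level. Its normalised counts were 21.8 in A549-vector and 170.6 in A549-myr-AKT1 cells, that is 7.82-fold higher, from 25 and 149 reads (log2 ratio 2.97, 2.35 to 3.64). In HCC827 they were 157.4 in vector and 412.7 in myr-AKT1 cells, or 2.62-fold higher (1.39, 1.13 to 1.65). On counts rescaled over all 4 libraries, EGF was at 152.8 in A549-myr-AKT1 and 175.0 in HCC827-vector cells.

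AREG (amphiregulin) and EREG (epiregulin), which had the highest TPM of the 6 ligands in every library, were both lower with myr-AKT1 in both lines. AREG had 1592.8 normalised counts in A549-vector and 443.2 in A549-myr-AKT1 cells, 3.59-fold lower (log2 ratio -1.85, -2.01 to -1.69). In HCC827 the values for AREG were 4553.7 and 3169.7, 1.44-fold lower (-0.52, -0.59 to -0.45). EREG was called lower in both lines. EREG had 3118.4 and 1173.8 normalised counts in the A549 pair, 2.66-fold lower (-1.41, -1.51 to -1.31). In the HCC827 pair EREG had 13517 and 6085.2, 2.22-fold lower (-1.15, -1.20 to -1.11). The counts of both ligands were higher in each HCC827 library than in either A549 library.

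TGFA (transforming growth factor alpha) was called higher in A549 and had a ratio below 0 in HCC827. It had 231.4 normalised counts in A549-vector and 513.0 in A549-myr-AKT1 cells, 2.22-fold higher (log2 ratio 1.15, 0.93 to 1.37). In HCC827 it had 1821.5 and 1123.7, 1.62-fold lower (-0.70, -0.81 to -0.58). BTC (betacellulin) had 92.6 and 105.4 normalised counts in the A549 pair, with a ratio whose interval spans 0 (0.19, -0.23 to 0.60). In HCC827 BTC had 512.6 in vector and 245.4 in myr-AKT1 cells, 2.09-fold lower (-1.06, -1.30 to -0.83). Scaled by total reads, that BTC ratio was -0.98 and no longer called. HBEGF (heparin-binding EGF-like growth factor) gave 69.9 to 90.6 normalised counts in the 4 libraries. Its log2 ratio was -0.20 (-0.69 to 0.28) in A549 and 0.19 (-0.27 to 0.64) in HCC827, and the 61 to 100 reads per library leave changes within these intervals undetectable.

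AREG, EREG and BTC lie in 1 stretch of chromosome 4 with EPGN (epigen), another ligand of EGFR. On GRCh38, EREG is at chr4:74365145-74388749 and AREG at chr4:74445136-74455005, both on the plus strand and 56386 bases apart, and BTC at chr4:74744759-74794523 on the minus strand, a further 289753 bases away. EPGN, 48355 bases before EREG, had 0 to 3 reads per library. EGF is on the same chromosome at chr4:109912883-110013766. Beside each other in the genome, AREG and EREG were both lower with myr-AKT1 in both lines, BTC in HCC827 only by the call, and EPGN was not measurable. The promoters of these ligands are shown because they are the ligands with a call in both lines, or their neighbours. Each is 300 bases long, from 250 bases before the start to 50 bases from it on, as RefSeq gives it on GRCh38.p14, written 5′ to 3′ on the strand of the gene. Capitals mark a match to a searched motif. The windows are chr4:74444886-74445185 (AREG, plus), chr4:74364895-74365194 (EREG, plus), chr4:74794474-74794773 (BTC, minus) and chr4:109912633-109912932 (EGF, plus).
AREG: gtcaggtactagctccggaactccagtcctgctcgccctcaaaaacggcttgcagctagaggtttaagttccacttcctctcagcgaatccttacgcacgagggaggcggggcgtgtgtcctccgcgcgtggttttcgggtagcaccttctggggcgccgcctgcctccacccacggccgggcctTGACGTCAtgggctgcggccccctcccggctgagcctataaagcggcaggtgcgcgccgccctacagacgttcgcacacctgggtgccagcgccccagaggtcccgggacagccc
EREG: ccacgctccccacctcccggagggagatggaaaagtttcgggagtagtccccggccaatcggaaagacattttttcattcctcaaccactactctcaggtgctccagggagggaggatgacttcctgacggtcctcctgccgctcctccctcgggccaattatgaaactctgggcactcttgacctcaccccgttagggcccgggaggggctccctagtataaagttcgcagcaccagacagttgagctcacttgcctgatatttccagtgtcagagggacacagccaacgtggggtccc
BTC: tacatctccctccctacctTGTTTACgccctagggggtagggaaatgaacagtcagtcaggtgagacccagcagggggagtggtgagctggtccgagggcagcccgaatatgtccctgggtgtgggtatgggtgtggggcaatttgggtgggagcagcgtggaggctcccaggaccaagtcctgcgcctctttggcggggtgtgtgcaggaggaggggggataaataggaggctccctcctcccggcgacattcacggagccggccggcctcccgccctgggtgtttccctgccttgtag
EGF: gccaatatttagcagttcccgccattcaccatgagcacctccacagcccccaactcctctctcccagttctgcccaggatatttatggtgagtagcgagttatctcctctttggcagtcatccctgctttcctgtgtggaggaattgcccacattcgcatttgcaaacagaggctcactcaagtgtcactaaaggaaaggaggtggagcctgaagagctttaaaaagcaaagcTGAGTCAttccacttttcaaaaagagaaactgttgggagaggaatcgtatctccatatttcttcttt

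Motifs were searched on both strands in the promoters of the 9 genes that the table holds, in 11 windows; ERBB3 was the gene not in it. The FOXO motif was GTAAACA, held by 3.42% of the 35116 promoters in the table, and the STAT motif TTCNNNGAA, held by 7.66%. The AP-1 motif was TGANTCA (7.71%) and the cyclic AMP response element (CRE) was TGACGTCA (1.85%). FOXO factors are kept out of the nucleus by active AKT, and AP-1 and CREB act at AP-1 motifs and CREs. AREG held a CRE at positions -65 to -58 from its start. BTC held the FOXO motif, on the opposite strand, at -231 to -225, and EGF an AP-1 motif at -17 to -11. The EREG window held none of the 4 motifs. Among the receptors, ERBB2 had 1 AP-1 match and the second EGFR window 2, and 5 of the 11 windows held a match. The share of all promoters with any of the 4 motifs is not given here, so that count cannot be read as high or low. These are matches of letters, and no binding was measured.

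Per unit of length, the family was dominated by few genes. TPM, computed from the recovered reads and the summed exon length of each gene, allows levels of different genes to be set side by side. The receptor TPM summed to 99.6 in A549-vector, 147 in A549-myr-AKT1, 1874 in HCC827-vector and 974 in HCC827-myr-AKT1 cells. EGFR made up 59.7%, 48.3%, 93.4% and 83.6% of these sums in the same order, and ERBB3 8.68%, 25.8%, 2.90% and 8.61%. ERBB3 thus held a larger share of receptor mRNA with myr-AKT1 in both lines, and EGFR a smaller one. ERBB2 held 30.5% and 25.4% in A549 and 3.70% and 7.82% in HCC827, so that ERBB2 and ERBB3 were nearly level in both myr-AKT1 libraries.

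The ligand TPM summed to 206 in A549-vector and 88.9 in A549-myr-AKT1 cells, and to 1044 and 645 in the HCC827 pair. AREG and EREG provided most of each sum. The sums leave out EPGN and the neuregulins, of which NRG1 was at 34.9 and 32.7 TPM in the A549 pair. In the HCC827 pair NRG1 was at 6.80 and 3.17 TPM. AREG held 59.6% in A549-vector and 40.6% in A549-myr-AKT1 cells, and 48.2% and 56.8% in the HCC827 pair. EREG held 33.5% and 30.9% in A549, and 41.1% and 31.3% in HCC827. TGFA held 2.89% in A549-vector and 15.7% in A549-myr-AKT1 cells, 6.44% and 6.72% in the HCC827 pair. EGF stayed a small part, at 0.176% and 3.36% in A549 and 0.359% and 1.59% in HCC827, so that its high ratio concerned little mRNA.

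To compare the lines, the reads were rescaled with size factors over all 4 libraries, because the deposited values were scaled within each line. HCC827 held more mRNA of nearly the whole family. In the vector libraries, 8 of the 10 genes were called higher in HCC827 against 18.4% of 17367 genes, and 1, ERBB4, was called lower against 18.8%. In the myr-AKT1 libraries, 7 were called higher against 19.7% of 17880 genes and 1, again ERBB4, lower against 21.6%. The median log2 ratio of HCC827 to A549 over the 10 genes was 2.54 in the vector and 1.54 in the myr-AKT1 libraries, beside 0.00 and 0.01 over all genes. These line ratios share libraries with the ratios within a line, so the comparisons are not independent of each other.

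EGFR, the gene amplified in HCC827, showed the largest line ratio of the 10 in the vector libraries. Its rescaled count was 6257.4 in A549-vector and 170943 in HCC827-vector cells, 27.3-fold higher (log2 ratio 4.77, 4.74 to 4.80). Between the myr-AKT1 libraries it was 7572.7 in A549 and 78692 in HCC827, 10.4-fold higher (3.38, 3.34 to 3.41). EGFR reads were 0.708% of all reads in HCC827-vector and 0.333% in HCC827-myr-AKT1 cells, against 0.0256% and 0.0293% in the A549 pair. By TPM, EGFR ranked 40 of 25742 genes with reads in HCC827-vector cells (1751 TPM) and 104 of 25052 in HCC827-myr-AKT1 cells (814.3 TPM). It ranked 2088 of 26953 in A549-myr-AKT1 (70.9 TPM) and 2628 of 26826 in A549-vector cells (59.5 TPM), which completes the order of the 4 levels. Each step of that order was larger than the counting error, and the spread between cultures was not measured.

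The other receptors spread around this. ERBB2 was 2.12-fold higher in HCC827-vector than in A549-vector cells (log2 ratio 1.09, 1.02 to 1.15) and 1.85-fold higher between the myr-AKT1 libraries (0.88, 0.81 to 0.96). ERBB3 was 5.84-fold higher in the vector libraries (2.55, 2.44 to 2.65), and its myr-AKT1 ratio of 1.0003 (0.93 to 1.07) was at the threshold of the call. ERBB4 ran the other way, at 99.1 rescaled counts in A549-vector and 4.42 in HCC827-vector cells (-4.49, -6.13 to -3.23), and its myr-AKT1 ratio was -3.78 (-6.10 to -2.16), from 58 and 3 reads.

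Of the ligands, 5 of 6 were called higher in HCC827 in both conditions. TGFA was 10.5-fold higher in HCC827-vector cells (log2 ratio 3.39, 3.21 to 3.58), and the ratio was 1.49 (1.33 to 1.66) with myr-AKT1. For EGF the log2 ratios were 3.26 (2.66 to 3.93) and 1.64 (1.35 to 1.92), and for BTC 2.88 (2.59 to 3.19) and 1.58 (1.22 to 1.95). These 3 ligands stood closer between the lines in the myr-AKT1 libraries than in the vector libraries. AREG did the reverse, at 1.93 (1.85 to 2.01) and 3.20 (3.04 to 3.36), and EREG hardly differed between conditions, at 2.53 (2.48 to 2.58) and 2.73 (2.64 to 2.83). HBEGF, at 0.40 (-0.02 to 0.82) and 0.74 (0.22 to 1.25), was the ligand that was not called.

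A fit over all 4 libraries used the lines as the only repeats of the treatment. In limma with cell line as a block, fitted to log2(value + 1) of 19314 genes with Benjamini-Hochberg adjustment over all of them, 1.29% of genes were called higher and 1.73% lower with myr-AKT1. Of the 10 genes, only EREG passed, with a log2 change of -1.28 (SE 0.241, adjusted p = 0.0368), and it was lower in 2 of 2 lines. That call did not hold in edgeR's quasi-likelihood test (adjusted p = 0.0661) or in limma with a pseudocount of 0.1 (adjusted p = 0.112). Over all alternatives its adjusted p ran from 1.40e-04 to 0.999999. The highest value came from limma without the block, which leaves the line difference in the residual and called no gene. EGF, at 2.15 (SE 0.538, adjusted p = 0.0845), ERBB3, at 1.31 (SE 0.359, adjusted p = 0.107), and AREG, at -1.18 (SE 0.342, adjusted p = 0.122), each had the same sign in both lines and missed the threshold in limma. EGF passed in DESeq2 (adjusted p = 0.0266), and all 3 passed in limma on every gene with at least 1 read (adjusted p = 4.35e-04, 2.52e-04 and 0.00279). Over the alternatives their adjusted p reached 0.999999, again in limma without the block. EGFR had a fitted change of -0.50 (SE 0.366, adjusted p = 0.536). With 1 residual degree of freedom, limma took the variance of a gene largely from the trend over all genes. On every gene with at least 1 read it came from that trend alone. These p-values therefore do not measure the spread of a gene between repeat cultures, and the lines were the only replicates.

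The fitted line effect, with condition as a block, was called higher in HCC827 for 13.9% and lower for 15.5% of the same 19314 genes. Of the 10 genes, 8 were higher in HCC827 by this test and 1, ERBB4, was lower (log2 difference -3.85, SE 0.641, adjusted p = 0.00649 in limma). EGFR differed by 4.07 (SE 0.393, adjusted p = 0.00103) and EREG by 2.63 (SE 0.230, adjusted p = 7.85e-04). The other 6 had limma differences from 0.99 for ERBB2 (adjusted p = 0.0221) to 2.56 for AREG (adjusted p = 0.00314). HBEGF, at 0.56 (SE 0.501, adjusted p = 0.447), did not pass. Without the block, ERBB2 (adjusted p = 0.0775), ERBB3 (0.203), EGF (0.239), AREG (0.0624), EREG (0.0525) and BTC (0.0506) no longer passed in limma. The libraries of a line differed in condition, so these p-values do not measure the spread between repeat cultures.

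The wider pathway was read from a list of 21 genes of further ligands, shedding factors, adaptors and related signalling genes, and negative regulators. In A549, 0 of the 19 that passed the filter were called, and in HCC827 2 of 17 were called higher and 1 lower, with medians of 0.15 and 0.06 on the log2 scale. Of all genes, 14.8% were called higher and 9.86% lower in A549, and 14% and 12.4% in HCC827, so no count of the list stood above those shares. The 2 higher in HCC827-myr-AKT1 cells were LRIG1 (20.7 and 46.6 normalised counts, log2 ratio 1.17, 0.41 to 1.95), a transmembrane protein that lowers ERBB receptor levels, and CBLB (566.6 and 1281.0, 1.18, 1.04 to 1.32), a ubiquitin ligase. In A549 their ratios were 0.74 and 0.46. The gene called lower was NRG1, a neuregulin that binds ERBB3 and ERBB4, at 801.1 and 357.4 normalised counts (-1.16, -1.36 to -0.97), and in A549 its ratio was -0.18. In the limma fit over all libraries, 0 of 19 list genes passed for myr-AKT1, and 0 passed in edgeR and in DESeq2. At an unadjusted p under 0.05 the list genes numbered 2 in limma, 2 in edgeR and 3 in DESeq2, where 18.4%, 16.7% and 13.9% of all genes passed the same threshold.

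Of the 4 shedding genes none was called. RHBDF1, an inactive rhomboid that escorts ADAM17, had ratios of 0.77 in A549 and 0.79 in HCC827, and ADAM17 itself 0.31 and 0.32, each with an interval above 0. RHBDF2 went the other way, at -0.60 (-0.74 to -0.47) in A549 and -0.12 (-0.30 to 0.07) in HCC827. ADAM10 was at 0.05 and -0.29. Among the adaptors and related genes, which act between the receptors and RAS or PI3K, the adaptor SHC1 was at 0.53 and 0.40. PTPN11, a phosphatase, was at -0.28 and -0.26. ERRFI1, a feedback inhibitor that binds the EGFR kinase, was at -0.07 in A549 and -0.67 in HCC827. RNF41, the ubiquitin ligase that turns over ERBB3, was at 0.34 and 0.69. Most list genes thus stood within the threshold in both lines.

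Between the lines the list went largely with A549 for the neuregulins. In the vector libraries 1 of 18 list genes was called higher in HCC827 (GAB1, an adaptor to PI3K, at 1.41) and 4 lower, beside 18.4% and 18.8% of all genes. NRG1 had 4929.1 rescaled counts in A549-vector and 890.9 in HCC827-vector cells (log2 ratio -2.47, -2.56 to -2.37). NRG4 had 196 reads in A549-vector and 1 in HCC827-vector cells (-7.34, -12.65 to -4.84). NRG2 had 70 and 0 reads, at least 19.2-fold lower in HCC827 against a floor of 3 reads in the library. LRIG1 (-3.40) and SHC1 (-1.60) were the others called. With myr-AKT1, 1 of 19 was higher (CBL, 1.44) and 6 were lower, beside 19.7% and 21.6% of all genes. In the limma fit of the line effect 2 of 19 were higher and 5 lower, beside 13.9% and 15.5%. Thus A549 held more mRNA of NRG1, NRG2, NRG4 and of ERBB4, a neuregulin receptor, whereas HCC827 held more of ERBB3, the other.

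The 5 genes whose levels over the 4 libraries were most like those of EGFR were found among 14046 genes by the Euclidean distance between centred log2 rescaled counts. The nearest was SEC61G-DT (distance 0.240), a non-coding gene on the same chromosome, at chr7:54759313-54812727, with 5.10 and 6.15 rescaled counts in A549-vector and A549-myr-AKT1 cells and 160.0 and 89.7 in the HCC827 pair. It was followed by CRISPLD2 (0.254), SLCO5A1 (0.284), the unnamed gene ENSG00000258077 (0.410) and F3, the gene of tissue factor (0.454). All 5 were higher in HCC827 than in A549 in both conditions and lower in HCC827-myr-AKT1 than in HCC827-vector cells. They were picked for likeness to EGFR in these same libraries, so the shared pattern follows from the choice and is no separate result. The measure rests on 4 libraries, and SEC61G-DT had few reads in A549. So did ENSG00000258077 (5.10 and 7.18 rescaled counts in A549-vector and A549-myr-AKT1 cells) and CRISPLD2 (9.47 and 12.3).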

How the data were processed

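RNA of 4 established cell line cultures, 1 per condition, was sequenced on strand-specific libraries. The labels name rRNA depletion, the methods poly(A) selection. The authors mapped reads with Bowtie2 to hg38 and counted them per Ensembl gene with HTSeq; the annotation release and the strand setting of counting are not given in the sources used here. The methods name RPKM, but the deposited values are a signal equal to read counts divided by 1 size factor per library, set within each line. Dividing by the worth of 1 read gave whole reads (within 0.001) for all values above 0 except 1 in each vector library (26983 of 26984 and 25879 of 25880).

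Of 60558 identifiers, 60261 matched GENCODE release 44, which gave names, coordinates on GRCh38 and exon lengths; all 10 genes and 21 list genes matched. Ratios within a line used the deposited values, and ratios between lines used reads rescaled by median-of-ratios over all 4 libraries. TPM used the union of exons. Recovered reads totalled 16322183 to 33530317 per library, and counting intervals and floors cover counting error only. With 1 library per condition the planned tests across genes were limma 3.58.1 fits over all 4 libraries (mean-variance trend, pseudocount 1, 19314 genes kept by edgeR's filterByExpr, 1 residual degree of freedom). Alternatives were edgeR 4.0.16 and DESeq2 1.42.0 on the recovered reads, other scalings, filters, pseudocounts and thresholds, in R 4.3.3 and Python 3.11.15. The fits were tried on simulated counts in which each changed gene moved alike in both lines. That trial does not cover genes whose ratio differs between the lines. Named genes were the 10 family genes, the 21 list genes, AKT1, genes that overlap a member and the 5 genes nearest to EGFR in pattern. The members and lists were chosen with earlier results of these data known. A planned search of protein sequences was not made, and no protein sequence was used here.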

Additional observations from a re-analysis of the deposited data

Results flagged for a closer look

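Of the 26 family and list genes that passed the filter in both lines, 7 had log2 ratios of myr-AKT1 to vector on opposite sides of 0 in A549 and HCC827, each with a 95% counting interval that leaves out 0. That is 26.9% of them, and 14.7% of all 15668 genes that passed the filter in both lines did the same. Whether an interval leaves out 0 depends on read depth, so the 2 shares are not like for like. In A549, intervals lay above and below 0 for 5 and 3 of 10 family genes. They did so for 10 and 7 of 19 list genes, and for 6195 and 6836 of all 18688 genes. In HCC827 the counts were 3 and 5 of 9, 8 and 7 of 17, and 5772 and 6429 of 17306. With 1 library per condition, no test compared the lines for any of them, so the difference was not tested, and all 7 stayed opposite under each of 3 other scalings. The amplified receptor gene EGFR was at 0.17 in A549 and -1.17 in HCC827. Its ligand TGFA was at 1.15 and -0.70. The adaptor GAB1 was at 0.20 and -0.44, and SOS1, the exchange factor that loads RAS with GTP, was at -0.15 and 0.35. CBL, a ubiquitin ligase of activated EGFR, was at -0.42 and 0.64, and USP8, a deubiquitinase that spares receptors from degradation, at 0.15 and -0.59. ADAM10, a sheddase of EGF and BTC, was at 0.046 and -0.29, the smallest pair of values. EGFR and TGFA apart, the values of these genes lay between -1 and 1 in both lines.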

How the results depend on the processing

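The labels give no replicate number that pairs libraries, so cell line, or condition for the line effect, was the block of the fits, and leaving out a library leaves no residual degree of freedom. Under a log2 threshold of 2, the called genes of the family were 2 in A549 (5 at a threshold of 1) and 0 in HCC827 (4 at 1), and the share of all genes called was 8.30% in A549, 7.45% in HCC827 and 17.1% between the vector libraries. For myr-AKT1 in the fits over all libraries, where limma called 1 family gene and 585 genes in all, DESeq2 called 2 and 1139, edgeR 0 and 424, limma on every gene with at least 1 read 4 and 1995, limma without the block 0 and 0 (631 genes at an unadjusted p under 0.05) and limma with a pseudocount of 0.1 0 and 0 (3184 at an unadjusted p under 0.05). For the line effect, without the block, 3 family genes and 2988 genes in all were called, against 9 and 5675 with it. HBEGF alone changed sign in the fit of myr-AKT1, from -0.01 to 0.0884 in DESeq2 and 0.0394 in edgeR. The causes were not tested. Size factors over all 4 libraries moved every log2 ratio of the A549 pair by 0.10, and total reads moved those between the myr-AKT1 libraries by 0.13, which put ERBB2 there at 1.01. ERBB4 in HCC827, with 5 and 3 reads, went from -0.07 to 0.01 under total reads, and no other ratio of a family gene changed sign under another scaling or pseudocount. Of these values, 125 moved by less than their counting interval and 15 by more. With the length of the canonical transcript in place of all exons, an alternative chosen after seeing the data, 36 shares of the receptor and ligand sums stayed within 1.5 times and 4, those of ERBB4, did not. Depth limits HBEGF in both lines and ERBB4 in HCC827.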

Other observations

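ERBB2 lies among genes that are often amplified with it in tumours, and its neighbours PGAP3, which remodels lipid anchors, and MIEN1 were read beside it. PGAP3 had normalised counts of 293.4 in A549-vector and 404.2 in A549-myr-AKT1 cells (log2 ratio 0.46, 95% counting interval 0.24 to 0.68), and 306.0 and 602.7 in the HCC827 pair (0.98, 0.78 to 1.18). MIEN1 had 1268.0 and 1376.5 in A549 (0.12, 0.01 to 0.23), and 718.4 and 1116.1 in HCC827 (0.64, 0.50 to 0.77). Between the vector libraries, PGAP3 was at 0.47 (0.26 to 0.69) and MIEN1 at -0.41 (-0.53 to -0.28), beside 1.09 for ERBB2, so the 3 neighbours did not share a line ratio.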
